A study of Mus musculus with 28 samples.

Results

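The miR-290 cluster is a group of microRNA (miRNA) hairpins on mouse chromosome 7, and the 4 hairpins described here, Mir291a, Mir293, Mir294 and Mir295, were chosen by name from the 24984 genes listed in each of 3 Bru-seq tables. Bru-seq labels new RNA with 5-bromouridine (BrU) for a few minutes and sequences what an antibody to BrU captures, so a value at a hairpin is read here as nascent primary transcript and not as mature miRNA. WT mouse ES cells (mESCs) and mESCs labelled EloA null were profiled in steady state, with a 10-min pulse of 2 mM BrU, and after 60 min of 1 µM flavopiridol, an inhibitor of the kinase that releases paused polymerase, once the drug was washed out and BrU given for 5 or 10 min. Each of the 6 groups had 2 libraries, and "null-labelled" below means labelled EloA null. The cells were depleted of feeder fibroblasts before labelling, and EloA, the product of Eloa, is the transcriptionally active subunit of Elongin. The growth protocol calls the cells CCE28, kept in LIF with the 2i inhibitors PD0325901 and CHIR99021, and the treatment protocol calls them CJ7. The steady-state library named EloA null replicate 1 by its title carries a wild-type genotype label and was grouped by its title.

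In ES cells the cluster is transcribed by RNA polymerase II as 1 long primary transcript. Drosha with Dgcr8 cuts the hairpins out of that transcript in the nucleus, Dicer1 trims them in the cytoplasm, and one arm is loaded into an Argonaute protein. The loaded arm finds its targets mainly through its seed, the bases near its 5′ end. The cluster is known as the dominant miRNA source of mouse ES cells, where its members favour the G1 to S transition by repressing cell cycle inhibitors.

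The mature arms of the 4 hairpins are shown because they divide the members by the messages they can bind. They were taken from RefSeq (GRCm38.p6), are written 5′ to 3′, and carry the seed (bases 2 to 8) in capitals. The table held at least 1 mature sequence for each of the 9 listed hairpins of the cluster (17 together, with no 3p arm of Mir292) and a hairpin sequence for 8. The 3p arms of the 4 members, with those of Mir290a and Mir291b and that of Mir302b from another ES-cell cluster for comparison, read:
miR-291a-3p: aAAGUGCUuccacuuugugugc
miR-294-3p: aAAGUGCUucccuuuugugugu
miR-295-3p: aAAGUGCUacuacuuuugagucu
miR-302b-3p: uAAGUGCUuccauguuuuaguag
miR-291b-3p: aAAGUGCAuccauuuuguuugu
miR-290a-3p: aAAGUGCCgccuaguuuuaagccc
miR-293-3p: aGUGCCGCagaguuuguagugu
Mir291a, Mir294 and Mir295 share 1 seed on the 3p arm. Among the 1738 mature sequences of the table, 5 carry it, and the other 2 are miR-302b-3p and miR-302d-3p. Mature arms missing from the table could not be counted, so more may share this seed. The 3p arms of Mir291a and Mir294 matched at 19 of 22 positions without gaps, and those of Mir294 and Mir295 at 12 of 22. Mir293 stands apart in its 3p seed, which occurs in no other sequence of the table. Compared from the first base without gaps, its 3p arm matched those of Mir291a, Mir294 and Mir295 at 7, 9 and 6 of 22 positions. Shifted alignments were not examined. The 5p arms of the members read:
miR-291a-5p: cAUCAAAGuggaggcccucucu
miR-293-5p: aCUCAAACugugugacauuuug
miR-294-5p: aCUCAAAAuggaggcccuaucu
miR-295-5p: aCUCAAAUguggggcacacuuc
The 5p arms of Mir293, Mir294 and Mir295 begin with the same 7 bases, and their seeds differ only in the last base. The 5p seed of Mir293 also occurs in miR-290a-5p and miR-292a-5p.

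In the GRCm38 annotation, the assembly of the mm10 genome used for the deposited tables, the 7 plus-strand hairpins of the cluster lie within 2216 bases. Mir291a is at chr7:3218919-3219000, Mir293 at chr7:3220343-3220422, Mir294 at chr7:3220641-3220724 and Mir295 at chr7:3220773-3220841. All 4 lie inside D7Ertd143e (chr7:3218784-3221015, plus strand, 1 exon of 2232 bases), a long noncoding RNA whose annotation spans these hairpins. Mir293, Mir294 and Mir295 are grouped at its 3′ end, after a gap of 782 bases behind Mir291b. The hairpins of these 3 members, with the annotated mature arms in capitals, are shown because the levels along the transcript described below turn on this end:
Mir293: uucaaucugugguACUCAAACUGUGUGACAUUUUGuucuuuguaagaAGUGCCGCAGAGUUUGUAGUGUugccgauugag
Mir294: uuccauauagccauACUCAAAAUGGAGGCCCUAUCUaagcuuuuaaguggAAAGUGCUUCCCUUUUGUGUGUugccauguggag
Mir295: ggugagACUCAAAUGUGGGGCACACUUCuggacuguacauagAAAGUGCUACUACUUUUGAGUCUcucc
Mir290a lies outside D7Ertd143e, with its last base 75 bases before the annotated start. The 300 bases around that start (chr7:3218534-3218833, plus strand, 250 bases before to 50 after the start) are shown with Mir290a in capitals, because Mir290a, before the start, held reads at a level like that of the hairpins behind it:
start window: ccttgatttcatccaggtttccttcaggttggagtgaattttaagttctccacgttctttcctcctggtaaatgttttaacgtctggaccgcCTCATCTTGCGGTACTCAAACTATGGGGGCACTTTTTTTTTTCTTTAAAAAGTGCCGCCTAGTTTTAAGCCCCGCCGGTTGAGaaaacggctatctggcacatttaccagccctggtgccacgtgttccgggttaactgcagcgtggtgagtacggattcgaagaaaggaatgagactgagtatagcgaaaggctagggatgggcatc

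Depth was read from the steps of the RPKM values (reads scaled by gene length and library size), since 1 read adds a fixed amount to a gene of known length. Library sizes, meaning the read totals by which RPKM was scaled, came out between 9857067 and 28546984 and may include a normalization factor. Between 93.31% and 96.28% of low values of short genes fell within 0.05 of a whole read. All 48 member values were whole within 0.00545 of a read and stood for 22 to 184 reads, with medians of 99 reads in steady state, 57 at 5 min and 135.5 at 10 min. One read was worth 0.417 to 1.47 RPKM at a member. D7Ertd143e held 889 to 3943 reads, so its values are far less affected by counting error. Intervals given below beside a level or a number of reads are exact 95% Poisson intervals, cover counting error only, and take no account of PCR copies, while those of log2 or fold changes come from limma and rest on the spread between libraries.

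Eloa was higher in the libraries labelled EloA null. Its level was 1.18 and 1.16 RPKM in WT and 1.96 and 1.89 in the libraries labelled EloA null in steady state, 2.96 and 2.82 against 5.14 and 6.25 at 5 min, and 4.65 and 6.51 against 8.74 and 8.93 at 10 min. The nascent level of Eloa therefore does not check the genotype labels, and which part of the gene is deleted is not given in the sources used here. All 9 ES-cell markers were above 0.5 RPKM in at least 1 genotype in every table, and 8 feeder fibroblast markers summed to 0.942 to 2.93 RPKM in a library, against 158 to 298 for the ES-cell markers. Feeder sums in the recovery tables were 1.61 to 1.82 (WT) and 0.942 to 1.31 RPKM (labelled EloA null) at 5 min and 2.27 to 2.93 and 1.68 to 2.09 RPKM at 10 min, without overlap; their part in the results below was not tested. Thy1, a defining fibroblast marker, was at 0 in both WT libraries at 5 min and at 0 and 0.0334 RPKM in the libraries labelled EloA null. Col1a1, the only 1 of the 8 with a mean above 0.5 RPKM in a genotype there, was at 0.794 and 0.711 RPKM in WT and 0.573 and 0.385 in the libraries labelled EloA null. In bulk libraries, fewer cells with an RNA and less of it per cell cannot be told apart.

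The cluster was among the most strongly labelled genes of these cells in every condition. In WT steady state, Mir291a ranked 33rd, Mir294 34th, Mir295 37th and Mir293 127th of 24984 genes per length, and the 4 ranked between 7th and 17th of 1180 miRNA genes. At 5 min of recovery Mir295 had the highest mean of all miRNA genes (98.9 ± 8.94 RPKM, SD, n = 2), and the 4 ranked between 1st and 9th. At 10 min they ranked between 2nd and 13th.

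Levels per length in WT steady state followed the order Mir291a, Mir294, Mir295 and Mir293. Mir291a, whose 3p arm carries the shared seed, was at 66.3 and 45.9 RPKM (56.1 ± 14.5, SD, n = 2). Mir294, with the same seed, was at 61.3 and 48.2 RPKM (54.7 ± 9.26). Mir295 was at 67.3 and 38.4 RPKM (52.9 ± 20.4). These 3 do not differ beyond the spread between the libraries. Mir293, the member with its own seed, was at 29.8 and 20.6 RPKM (25.2 ± 6.52), below the lowest value of each of the others in WT.

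**Figure D1:**
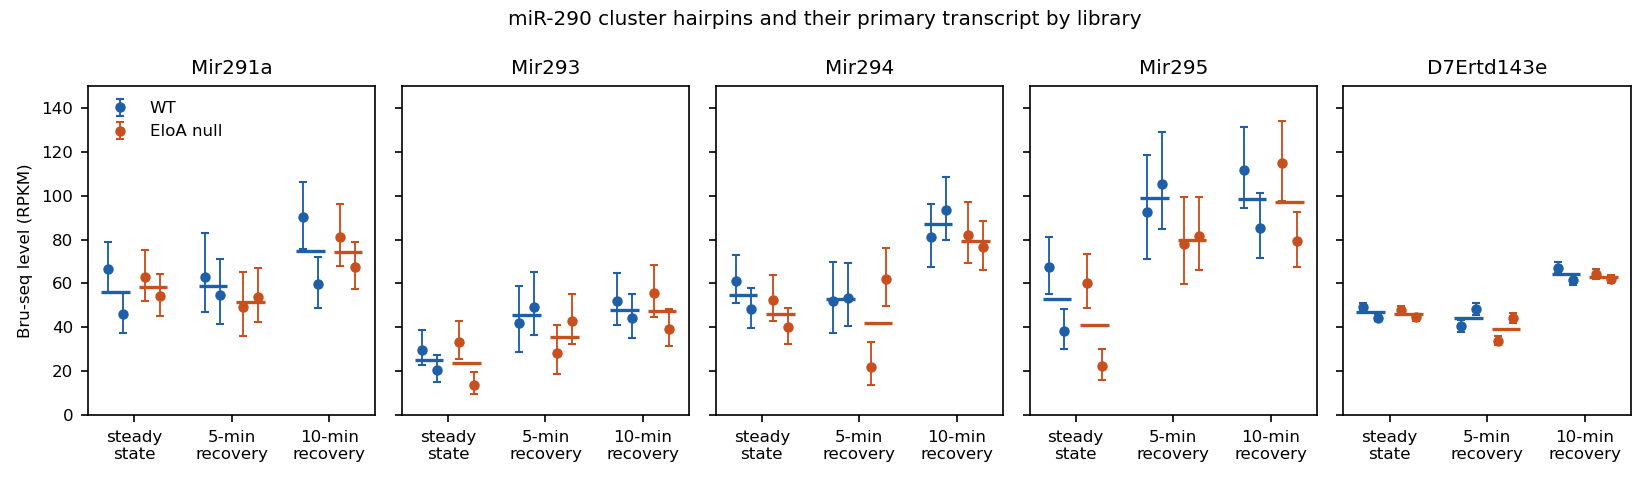
RPKM of the 4 members and of D7Ertd143e in each of the 12 libraries (points, with 95% Poisson intervals for counting error) and the mean of each group (bars), WT in blue and labelled EloA null in orange. Mir293 sits below the other 3 in most libraries, and Mir295 is higher in both recovery conditions than in steady state.

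The first comparison asks whether the cluster is transcribed at another level when EloA is lost. No difference at any of the 4 hairpins passed the test in steady state. In the libraries labelled EloA null, Mir291a was at 62.7 and 54.1 RPKM, within the WT range. Mir293 was at 33.5 and 13.9 RPKM, above and below both WT values. Mir294 was at 52.5 and 40.0 RPKM, and only its second library lay below WT. Mir295 was at 60.1 and 22.3 RPKM, and the lower value stood for 43 reads (95% interval 16.1 to 30.0 RPKM) against 96 reads in the other library of that group (48.7 to 73.4). The spread between these replicates was thus larger than counting error. In each genotype, replicate 2 was below replicate 1 at all 4 members in steady state.

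On the log2(RPKM + 0.1) scale, which understates changes of low values, the steady-state change (EloA null minus WT, limma) was 0.08 ± 0.22 (SE) for Mir291a, -0.20 ± 0.47 for Mir293, -0.24 ± 0.20 for Mir294 and -0.47 ± 0.56 for Mir295. Benjamini-Hochberg adjusted p-values ran from 0.549 to 0.873, and 0 of the 4 passed even an unadjusted p of 0.05. The 95% intervals were wide: from 0.705-fold to 1.58-fold for Mir291a, 0.364-fold to 2.08-fold for Mir293, 0.580-fold to 1.23-fold for Mir294 and 0.256-fold to 2.03-fold for Mir295. limma called 0 of 11347 genes at an adjusted p of 0.05 (0%), while 2083 had an unadjusted p under 0.05 and a fit of all 12 libraries with 1 shared spread called 136 (1.2%). Without null-labelled replicate 1, the library with the wild-type genotype label, the log2 changes were -0.03 (Mir291a), -0.83 (Mir293), -0.44 (Mir294) and -1.19 (Mir295), with adjusted p-values of 0.293 or above and the lone library assumed to vary like the WT pair. With all libraries, none of the members passed 1.5-fold, against 9.31% of the genes tested in either direction. None had libraries of the genotypes that did not overlap, against 53.3% of the genes tested.

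At 5 min of recovery all 4 members had lower means in the libraries labelled EloA null, and none passed the test. Mir291a was at 63.1 and 54.9 RPKM in WT and 49.1 and 53.7 in null-labelled libraries. Mir295 was at 92.6 and 105 RPKM in WT and 77.8 and 81.4 in null-labelled libraries. The genotypes did not overlap at these 2 members, but neither did they at 40.4% of the 8985 genes tested. Mir293 was at 41.8 and 49.3 RPKM in WT and 28.3 and 42.7 in null-labelled libraries. Mir294 was at 51.9 and 53.6 RPKM in WT and 22.0 and 62.0 in null-labelled libraries. The lower value of Mir294 stood for 22 reads (13.8 to 33.3 RPKM), and the other library of the group lay above both WT libraries.

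The fitted log2 changes at 5 min were -0.20 ± 0.18 for Mir291a, -0.38 ± 0.26 for Mir293, -0.51 ± 0.49 for Mir294 and -0.31 ± 0.17 for Mir295, with adjusted p-values from 0.645 to 0.796. The median over all genes tested was -0.06. Again 0 genes passed the adjusted p (0%), 846 had an unadjusted p under 0.05, and the fit of all 12 libraries called 558 (6.21%), none of them a member. No member passed 1.5-fold, against 12.1% of the genes tested. Over the 4 members together, reads per summed length (315 bases) were 61.2 and 64.2 RPKM in WT and 42.9 and 59.2 in null-labelled libraries, a log2 difference of -0.31, which was -0.08 without null-labelled replicate 1. ES-cell markers summed to 211 to 249 RPKM in WT and 158 to 223 RPKM in null-labelled libraries in the same libraries, and their part in the cluster's lower means was not tested.

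At 10 min of recovery the libraries of the genotypes overlapped at all 4 members. Mir291a was at 90.1 and 59.7 RPKM in WT and 81.2 and 67.5 in null-labelled libraries. Mir293 was at 51.8 and 44.2 RPKM in WT and 55.7 and 39.4 in null-labelled libraries. Mir294 was at 81.0 and 93.4 RPKM in WT and 82.3 and 76.7 in null-labelled libraries. The null-labelled libraries lay between the WT values at Mir291a and on either side of them at Mir293. Mir295, at 112 and 85.4 RPKM in WT and 115 and 79.2 in null-labelled libraries, overlapped too. The log2 changes were 0.01 ± 0.23 (Mir291a), -0.03 ± 0.20 (Mir293), -0.13 ± 0.10 (Mir294) and -0.04 ± 0.23 (Mir295), with adjusted p-values from 0.493 to 0.981. Here limma called 0 of 10241 genes (0%), with 2098 at an unadjusted p under 0.05 and 360 (3.52%) in the fit of all 12 libraries, again no member. No member passed 1.5-fold (12.4% of the genes tested did), and 0 of 4 had separate libraries (55.4%).

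D7Ertd143e, the transcript that holds the hairpins, gave the same comparison with many more reads. It was at 49.1 and 44.4 RPKM in WT and 47.7 and 44.5 in null-labelled libraries in steady state. At 5 min it was at 40.4 and 48.4 RPKM in WT and 34.0 and 44.2 in null-labelled libraries, and at 10 min at 67.2 and 61.4 in WT and 64.2 and 61.9 in null-labelled libraries. The libraries of the genotypes overlapped in all 3 conditions. Its log2 changes were -0.02 ± 0.12, -0.19 ± 0.22 and -0.03 ± 0.08, with 95% intervals of 0.794-fold to 1.23-fold, 0.597-fold to 1.29-fold and 0.843-fold to 1.14-fold (adjusted p = 0.95, 0.842 and 0.878, limma). Changes smaller than these bounds were not detectable with 2 libraries per group, and larger ones could also miss the adjusted p. Eloa, at 1.65 times its WT mean in steady state in null-labelled libraries, did not pass (adjusted p = 0.0999, limma). The difference between the genotypes' changes at 5 min and in steady state was -0.17 ± 0.21 for D7Ertd143e (adjusted p = 0.937) and at 10 min -0.01 ± 0.21 (adjusted p = 1.00), and for the members the adjusted p of that difference was 0.937 or above.

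**Figure D2:**
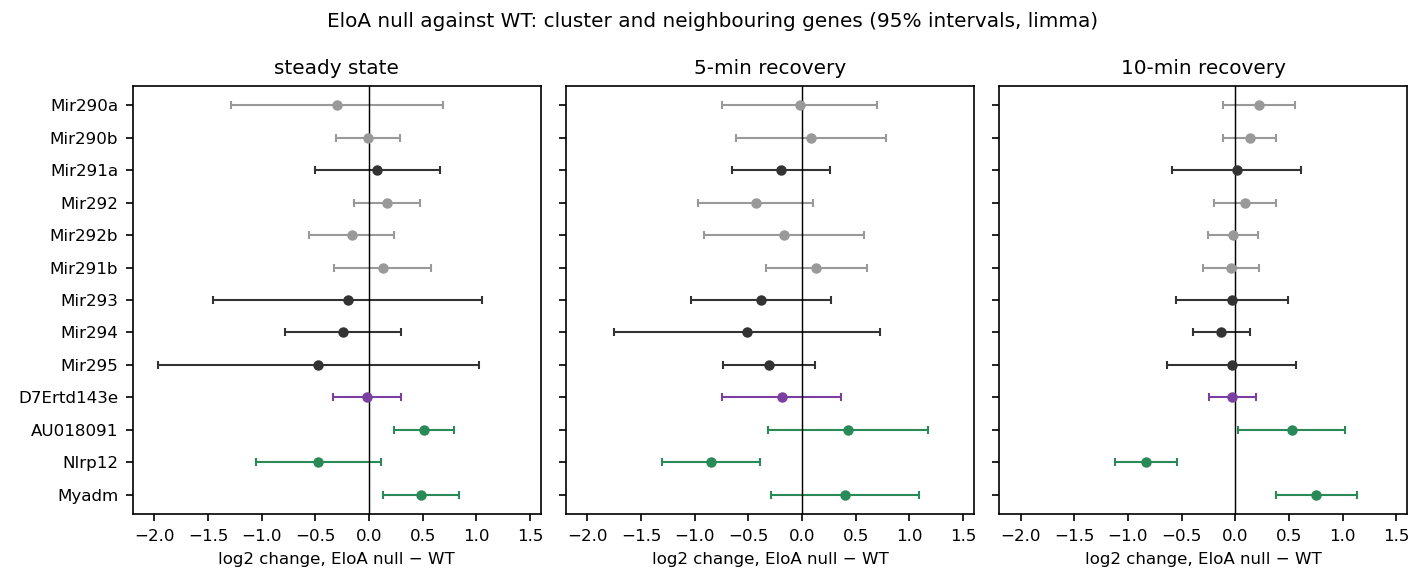
log2 change (EloA null minus WT, limma on log2(RPKM + 0.1)) with 95% intervals for the 9 hairpins of the cluster (members in black), D7Ertd143e (purple) and 3 neighbouring genes (green) in the 3 conditions. The intervals of the hairpins and of D7Ertd143e include 0 throughout. The point of Nlrp12 lies below 0 in each panel, with an interval that includes 0 in steady state and not at 5 or 10 min.

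None of the other 5 hairpins of the cluster passed the test either. Mir290a, the first hairpin, was at 65.0 and 51.3 RPKM in WT and 66.6 and 33.2 in null-labelled libraries in steady state, although it lies before the annotated start of D7Ertd143e. Mir292, at 52.0 and 69.3 RPKM in WT and 43.0 and 45.9 in null-labelled libraries at 5 min, had the only log2 change of the 5 past 0.3 (-0.43 ± 0.21, adjusted p = 0.597). Mir291b was at 75.7 and 81.6 RPKM in WT and 75.5 and 97.8 in null-labelled libraries in steady state, the highest of the hairpins in WT. Over all 9 hairpins, adjusted p-values were 0.475 to 0.968 in steady state, 0.597 to 0.988 at 5 min and 0.378 to 0.981 at 10 min, and 0 passed 1.5-fold in any condition.

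Mir290b and Mir292b are annotated on the minus strand, inside Mir290a and Mir292. Mir290b held 0.615 to 1.31 times the reads of Mir290a (median 0.685 over 12 libraries), and Mir292b held 0.857 to 1.40 times those of Mir292 (median 1.08), exceeding it in 7 of 12 libraries. Both minus-strand hairpins are shorter (58 and 62 bases) than those around them (83 and 82 bases). The libraries were made with a strand-specific kit, but the use of strand in the counting of genes is not given in the sources used here. How a read touching both a hairpin and D7Ertd143e was assigned is not given either. Counting without strand that gave each touching read to both genes would put no nested hairpin above the one around it. Mir292b was above Mir292 in 7 of 12 libraries, and which rule of counting was used was not tested.

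The second comparison follows the cluster along its transcript after release. The ratio of a hairpin's RPKM to that of D7Ertd143e in the same library does not depend on how the 3 tables were scaled, and it was examined after the values had been seen, so it is given without a test. In steady state Mir295 was at 1.37 and 0.865 times D7Ertd143e in WT and at 1.26 and 0.501 times in null-labelled libraries. At 5 min it was at 2.29 and 2.18 times in WT and at 2.29 and 1.84 times in null-labelled libraries. At 10 min it was at 1.66 and 1.39 times in WT and at 1.79 and 1.28 times in null-labelled libraries. All 4 libraries at 5 min thus lay above all 4 in steady state. At 10 min the 4 libraries overlapped steady state, although each genotype's pair lay above its own steady-state pair.

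Mir293 moved the same way at 5 min. Its ratio was 0.607 and 0.464 in WT and 0.701 and 0.311 in null-labelled libraries in steady state. At 5 min it was 1.04 and 1.02 in WT and 0.834 and 0.967 in null-labelled libraries, again above all 4 steady-state libraries. At 10 min the range was 0.637 to 0.867, which overlapped steady state, although the WT pair lay above its own steady-state pair. Mir291b moved the other way, from 1.54 to 2.20 in steady state to 1.05 to 1.44 at 5 min and 1.39 to 1.46 at 10 min, with no overlap in either case.

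Over all 4 libraries, the ratios of the other plus-strand hairpins overlapped those of steady state at both times. Within 1 genotype, the pair lay above its own steady-state pair for Mir290a at 5 min and Mir294 at 10 min (null-labelled) and for Mir292 at both times (WT). Of the minus-strand hairpins, Mir292b was higher (1.74 to 1.79 against 1.40 to 1.69) and Mir290b lower (1.15 to 1.32 against 1.33 to 1.40) at 10 min, without overlap over all 4 libraries. Mir291a, near the start of D7Ertd143e, was at 1.03 to 1.35 in steady state, 1.13 to 1.56 at 5 min and 0.972 to 1.34 at 10 min. Mir294, which lies between Mir293 and Mir295 and only 48 bases before Mir295, was at 0.899 to 1.25 in steady state, 0.647 to 1.40 at 5 min and 1.21 to 1.52 at 10 min. Within a library, Mir295 was at 0.412 to 1.01 times the RPKM of Mir291a in steady state, 1.47 to 1.92 times at 5 min and 1.17 to 1.43 times at 10 min. Within 1 genotype, with 2 libraries against 2, the exact permutation test cannot give a two-sided p below 0.333. Sets of 4 libraries pool the genotypes and are not replicates of 1 group. No background share of such separations over other genes is given for these ratios. Depth also differs with condition, since the 5-min libraries are the smallest. The BrU pulse differs too, at 5 min in the 5-min libraries against 10 min in steady state. At 5 min, pulse length, depth and release from the drug cannot be told apart.

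**Figure D3:**
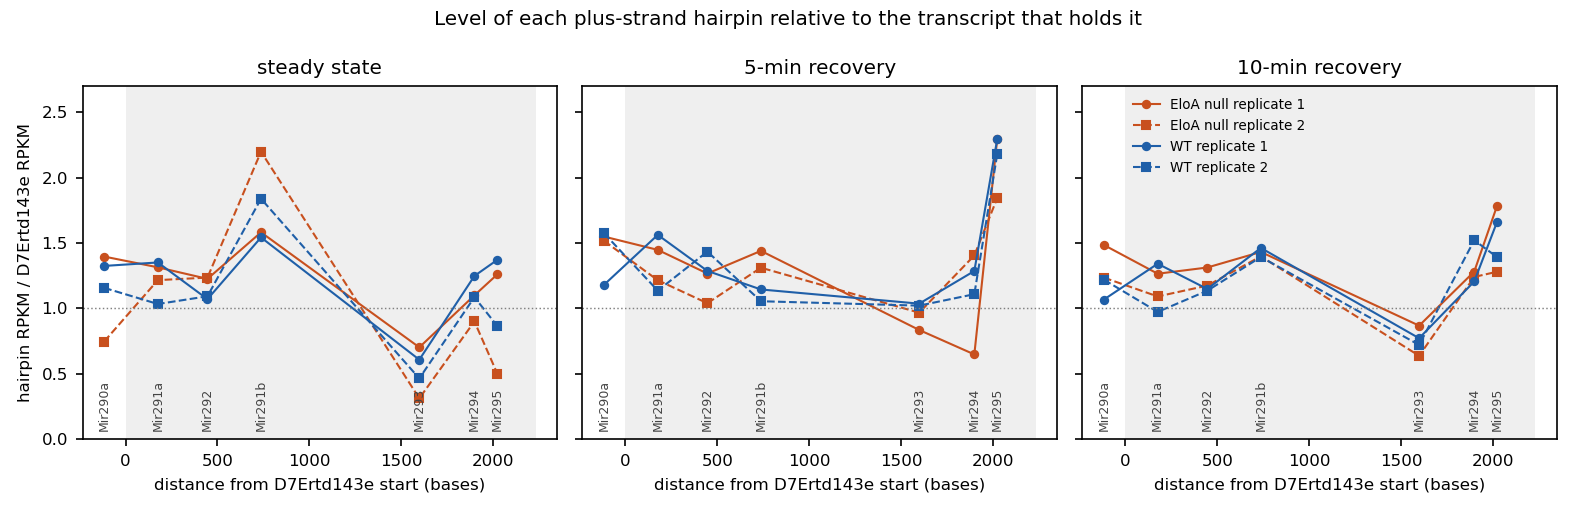
RPKM of each plus-strand hairpin divided by that of D7Ertd143e in the same library, against its distance from the annotated start of D7Ertd143e in bases (grey band, the extent of D7Ertd143e), 1 line per library. Mir295 reaches 1.84 to 2.29 at 5 min against 0.501 to 1.37 in steady state, and Mir293 is the lowest hairpin in steady state.

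The third comparison sets recovery against steady state. The tables were normalized separately, so values are given side by side, next to the median of expressed genes spanning under 10 kb. The 4 members together were at 47.2 ± 12.4 RPKM in WT steady state (SD, n = 2), at 62.7 ± 2.10 at 5 min (1.33 times) and at 76.5 ± 8.68 at 10 min (1.62 times). In null-labelled libraries they were at 42.6 ± 13.3, 51.0 ± 11.5 (1.20 times) and 73.9 ± 12 RPKM (1.74 times). The median ratio of genes under 10 kb was 0.977 in WT (2555 genes) and 0.877 in null-labelled libraries (2487 genes) at 5 min, and 1.40 (2843 genes) and 1.44 (3020 genes) at 10 min. At 5 min the member values depended on the hairpins chosen: over all 9, the log2 ratio was 0.11 in WT and -0.02 in null-labelled libraries, against 0.41 and 0.26 over the 4.

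D7Ertd143e itself lay near the middle of genes under 10 kb. Its ratio to steady state was 0.949 in WT and 0.847 in null-labelled libraries at 5 min, above 47.8% and 47.6% of genes under 10 kb, and 1.37 in both genotypes at 10 min, above 48.9% and 47.3%. Among the members, Mir295 had ratios of 1.87 and 1.93 at 5 min (WT and null-labelled) and 1.86 and 2.35 at 10 min. These were above 79.0%, 80.7%, 78.1% and 85.7% of miRNA genes with means above 0.5 RPKM in both conditions. Such genes can hold few reads, since 1 read was worth 0.689 to 1.47 RPKM at a member at 5 min. Mir293 had ratios of 1.81 and 1.5 at 5 min and 1.90 and 2.01 at 10 min. Mir291a (1.05 and 0.880) and Mir294 (0.964 and 0.908) stayed near 1 at 5 min and were at 1.33, 1.27, 1.59 and 1.72 at 10 min.

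**Figure D4:**
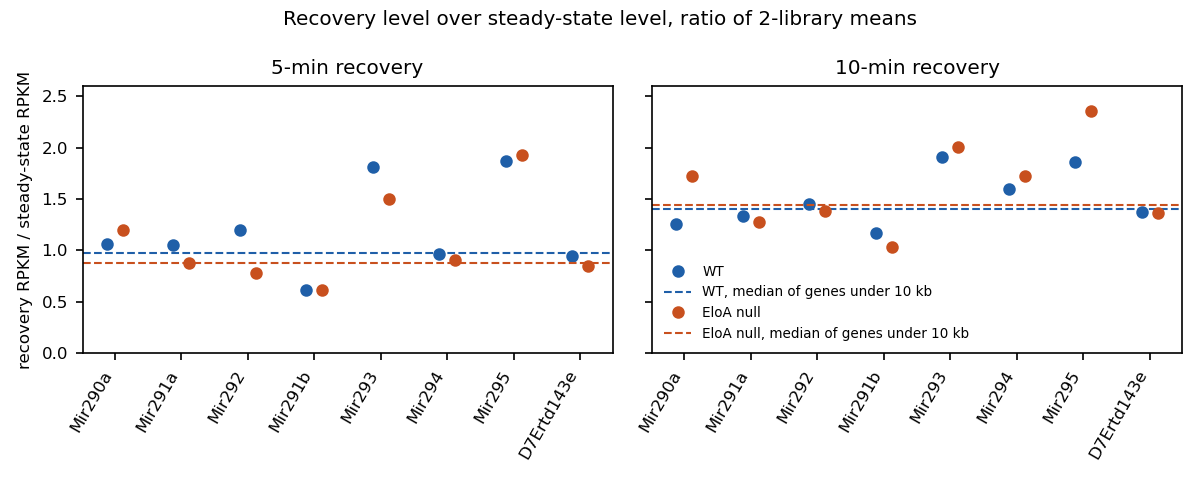
Mean RPKM in recovery divided by mean RPKM in steady state for the 7 plus-strand hairpins and D7Ertd143e, in WT (blue) and libraries labelled EloA null (orange), each a ratio of means of 2 libraries; dashed lines mark the median of genes under 10 kb. Mir293 and Mir295 lie above the lines in both panels and Mir291b below them, while D7Ertd143e lies close to them.

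Genes next to the cluster were examined because they share its chromosomal surroundings. Of 8 other listed genes within 200 kb, 4 had a mean above 0.5 RPKM in at least 1 genotype in every table. Nlrp12, which encodes an NLR-family protein of innate immune cells, lies on the opposite strand (chr7:3218643-3249771), and its annotation extends across the cluster. It was at 0.644 and 0.515 RPKM in WT and 0.457 and 0.326 in null-labelled libraries in steady state, at 1.67 and 1.44 against 0.730 and 0.917 at 5 min, and at 3.28 and 3.30 against 1.92 and 1.69 at 10 min. At Nlrp12 the genotypes did not overlap in any condition, but neither did they at 53.3% (steady state), 40.4% (5 min) and 55.4% (10 min) of the genes tested. Its log2 changes were -0.47 ± 0.22, -0.85 ± 0.18 and -0.84 ± 0.11, and it did not pass the main test (adjusted p = 0.340, 0.279 and 0.0957, limma). In the fit of all 12 libraries, it fell in null-labelled libraries at 5 min (adjusted p = 0.0274) and at 10 min (adjusted p = 0.0400).

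Nlrp12 and D7Ertd143e differed in size of change from steady state to recovery, and that difference was not tested. In WT, Nlrp12 was higher at 10 min than in steady state in every library, from 0.515 to 0.644 up to 3.28 to 3.30 RPKM, whereas D7Ertd143e went from 44.4 to 49.1 up to 61.4 to 67.2 RPKM. Even if counted over its full span of 31129 bases, Nlrp12 would hold 284 to 479 reads in a steady-state library, fewer than the 2466 to 2777 of D7Ertd143e, which its annotation covers.

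AU018091 (chr7:3154658-3169203), on the other side of the cluster, was at 2.82 and 2.53 RPKM in WT and 3.65 and 4.06 in null-labelled libraries in steady state, with a log2 change of 0.51 ± 0.10 (adjusted p = 0.140). Its changes were 0.43 ± 0.29 at 5 min and 0.53 ± 0.19 at 10 min. Myadm (chr7:3289038-3299355), a myeloid-associated membrane protein gene, was at 3.37 and 2.68 RPKM in WT and 4.14 and 4.33 in null-labelled libraries in steady state. Its log2 changes were 0.48 ± 0.13, 0.40 ± 0.27 and 0.75 ± 0.14 (adjusted p = 0.187, 0.730 and 0.128). Cacng7, a calcium channel subunit gene, was tested in steady state and at 10 min, with changes of 0.35 and 0.44, and Gm23450 was listed at 0 in WT in every table.

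**Figure D5:**
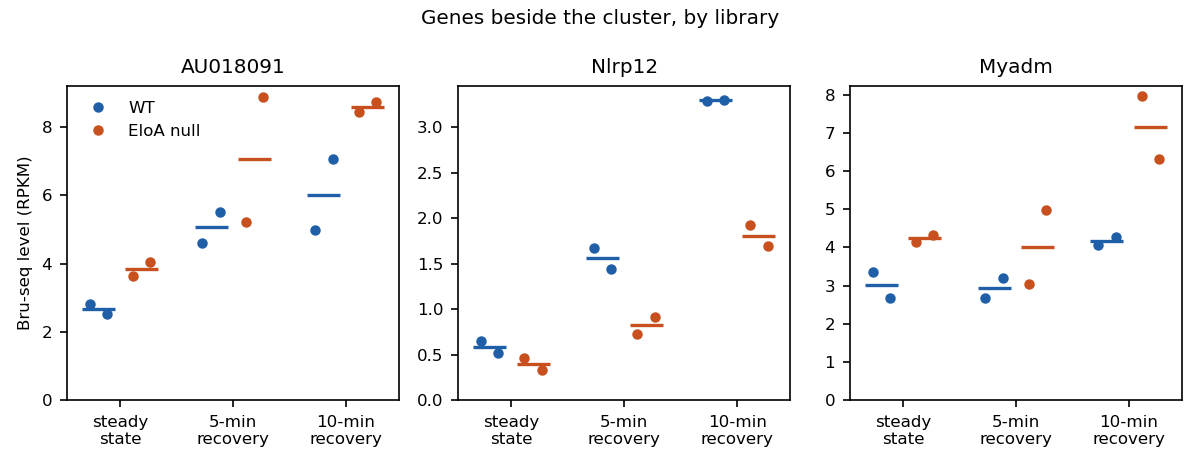
RPKM of AU018091, Nlrp12 and Myadm in each library (points) and group means (bars), WT in blue and labelled EloA null in orange, with each vertical axis starting at 0. Nlrp12 is lower in the libraries labelled EloA null in all 3 conditions, at 1.92 and 1.69 against 3.28 and 3.30 RPKM at 10 min.

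Among 6846 genes above 0.5 RPKM in all 12 libraries and outside the cluster's hairpins, those whose log2 levels followed the summed members most closely were Snord70, Ptrh2, Gm11520, Snord2 and Snora28, with Pearson's r of 0.931, 0.916, 0.908, 0.907 and 0.902. Snord70, Snord2 and Snora28 are small nucleolar RNAs of 53 to 122 bases, and Ptrh2 encodes a mitochondrial peptidyl-tRNA hydrolase. D7Ertd143e, with r = 0.726, ranked 1196th. The 12 libraries share 3 tables and differ in depth, so these values describe the libraries.

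Other miRNA clusters with related seeds had lower levels in WT steady state, where the highest of them, Mir106b, was at 18.9 and 21.0 RPKM (19.9 on average, against 25.2 for Mir293). The list held 21 genes, from the Mir302 cluster on chromosome 3, the Mir17 cluster with its host Mir17hg, and the Mir106a and Mir106b clusters. It was drawn by cluster, so a gene on it need not carry a related seed itself. In WT steady state, Mir302b and Mir302d, whose 3p arms share the seed of Mir291a, Mir294 and Mir295, were at 5.09 and 1.94 RPKM and at 8.88 and 5.43 RPKM. The host Mir17hg was at 15.7 and 15.8 RPKM in WT and 23.9 and 16.8 in null-labelled libraries. All 21 were tested in each table and 0 passed the adjusted p of the main test in any, and the median log2 change was 0.03 in steady state, 0.06 at 5 min and 0.23 at 10 min, beside 0.03, -0.06 and 0.06 over all genes. With robust variance estimates Mir106a passed at 5 min (adjusted p = 0.0085, limma, against 0.0678 in the main test), where it was listed at 0 in both WT libraries and at 2.58 and 1.78 RPKM in null-labelled libraries. That call rests on few reads, since 1 read was worth 0.689 to 1.47 RPKM at a member at 5 min. Mir106a did not pass there in the fit of all 12 libraries (adjusted p = 0.186). At 10 min it was at 0 and 2.09 RPKM in WT and 0 and 3.23 in null-labelled libraries.

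None of the genes that make and use miRNAs passed the test. Of 20, 17 were tested in steady state and 16 in each recovery table, 0 passed the adjusted p, and the median log2 changes were 0.01, -0.07 and -0.01. Drosha, the nuclease that frees the hairpins, was at 5.30 and 5.39 RPKM in WT and 4.77 and 4.97 in null-labelled libraries in steady state. Its partner Dgcr8 was at 5.87 and 5.42 RPKM in WT and 5.23 and 5.47 in null-labelled libraries. Dicer1 was at 2.87 and 2.91 RPKM in WT and 3.1 and 3.01 in null-labelled libraries. Lin28a, an RNA-binding protein that blocks let-7 processing, was the only gene of this list past 1.5-fold in steady state, at 0.348 and 0.358 RPKM in WT and 0.561 and 0.756 in null-labelled libraries (adjusted p = 0.182).

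The transcription factors known to bind the cluster's promoter or enhancer in ES cells numbered 10, all tested, with 0 past the adjusted p and median log2 changes of 0.16, -0.16 and 0.01. Pou5f1 was at 7.36 and 8.48 RPKM in WT and 10.6 and 16.5 in null-labelled libraries in steady state (adjusted p = 0.227). Klf4 was at 21.1 and 22.9 RPKM in WT and 13.8 and 16.8 in null-labelled libraries at 5 min, and fell there only in the fit of all 12 libraries (log2 change -0.52, adjusted p = 0.0413; 0.511 in the main test). Nanog (22.0 and 22.5 against 13.3 and 19.7 RPKM) and Sox2 (25.8 and 29.1 against 21.7 and 27.1 RPKM) passed neither test at 5 min.

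Genes reported as targets of the cluster were read here as nascent transcripts, on which miRNA repression of the mature message does not act directly. Of 9, between 7 and 8 were tested in a table, 0 passed the adjusted p, and the median log2 changes were 0.02, 0.04 and 0.10. Cdkn1a, which encodes the cell cycle inhibitor p21, was at 3.41 and 3.75 RPKM in WT and 3.30 and 3.84 in null-labelled libraries in steady state. At 5 min it was at 2.90 and 2.95 RPKM in WT and 1.70 and 1.74 in null-labelled libraries, and fell there only in the fit of all 12 libraries (log2 change -0.73, adjusted p = 0.0115; 0.262 in the main test). Lats2, a kinase of the Hippo pathway, was at 2.31 and 2.27 RPKM in WT and 2.92 and 3.23 in null-labelled libraries in steady state (adjusted p = 0.152). Rbl2, a member of the retinoblastoma family, was at 2.86 and 2.83 RPKM in WT and 3.19 and 3.13 in null-labelled libraries (adjusted p = 0.383).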

How the data were processed

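Bru-seq was analysed in 12 libraries, and the other 16 samples of the series were not used here. The authors aligned paired-end reads to mm10 and dm3 with Bowtie2 2.3.4.3, kept uniquely aligned reads, counted reads in RefSeq genes with featureCounts 1.6.1, and deposited RPKM values made with edgeR, in 1 table per condition. Drosophila spike-in RNAs were added to each sample, but whether they were used for scaling is not given in the sources used here. The scaling between the 3 tables is not given either. Library sizes and reads were recovered from RPKM steps with gene lengths from RefSeq.

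Within each table, limma 3.58.1 (R 4.3.3) with an intensity trend was fitted to log2(RPKM + 0.1) over all genes with a mean above 0.5 RPKM in either genotype, with Benjamini-Hochberg adjustment over all of them, and was tested on simulated data. Alternatives covered the pseudocount, the limit on RPKM, normalization, the variance model, the replicate block and each library in turn. The sources state duplicates and call the Bru-seq experiments independent, without naming separate cultures or saying whether the genotypes were paired. The p-values measure the spread between these libraries.

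Genes named were the members, the other hairpins, Eloa, neighbours above 0.5 RPKM, the 5 most alike in level, and listed genes of known role. One neighbour is not reported here. Members and lists were chosen with earlier results of these data known.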

Additional observations from a re-analysis of the deposited data

How the results depend on the processing

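No member passed the adjusted p in any condition under any of the alternatives run (156 member values, smallest adjusted p 0.244, and 14 changed sign without passing). Without 1 library, the log2 changes of the members ranged in steady state from -0.19 to 0.34 (Mir291a), -0.83 to 0.43 (Mir293) and -1.19 to 0.24 (Mir295), at 5 min from -1.26 to 0.23 (Mir294), and at 10 min from -0.28 to 0.31 (Mir291a), -0.28 to 0.22 (Mir293) and -0.30 to 0.23 (Mir295). Those of D7Ertd143e ranged from -0.091 to 0.054 in steady state and -0.091 to 0.038 at 10 min. For the other hairpins they were -0.80 to 0.21 (Mir290a), -0.064 to 0.039 (Mir290b) and -0.058 to 0.31 (Mir291b) in steady state, -0.36 to 0.32 (Mir290a), -0.26 to 0.43 (Mir290b) and -0.55 to 0.21 (Mir292b) at 5 min, and -0.013 to 0.20 (Mir292), -0.11 to 0.062 (Mir292b) and -0.14 to 0.060 (Mir291b) at 10 min. Among listed genes they were -0.059 to 0.10 (Klf4) and -0.11 to 0.10 (Cdkn1a) in steady state and -0.093 to 0.033 (Klf4) at 10 min. Centring on the library median turned Mir291a at 10 min to -0.083, Mir290a at 5 min to 0.045, Mir292 at 10 min to -0.0025 and Klf4 in steady state to -0.040. Quantile normalization turned Mir291a at 10 min to -0.051, Mir290a at 5 min to 0.11, Mir291b in steady state to -0.0018, Mir292b at 10 min to 0.027 and Klf4 in steady state to -0.044. The cause of these turns was not tested.

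The steady-state change of the 4 members together (-0.16) turned to 0.11 without WT replicate 1 and 0.17 without EloA null replicate 2, and was -0.43 without WT replicate 2 and -0.48 without EloA null replicate 1. At 10 min it (-0.06) turned to 0.060 without WT replicate 1 and 0.11 without EloA null replicate 2. At 5 min it ranged from -0.55 to -0.08. The count of members past 1.5-fold ranged from 0 to 2 without 1 library in steady state (1 without WT replicate 2, 2 without EloA null replicate 1) and from 0 to 2 at 5 min (2 without EloA null replicate 2). Centred on the median of genes under 10 kb, the log2 ratio of 10-min recovery to steady state became 0.21 in WT (0.70 as deposited) and 0.27 in EloA null (0.79 as deposited).

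Libraries with the same replicate number deviated together only weakly (r = 0.101, 0.119 and 0.103 across genes in the 3 tables), and the labels name no shared batch. With the replicate number as a block, the cluster's log2 change is -0.16, -0.31 and -0.06, equal by construction to the value without it, since each number holds 1 library of each genotype. Calls over all genes under the block were 0, 128 and 0. At 5 min they held Mir106a (adjusted p = 0.0024, limma), Mir20b (0.0204) and Mir363 (0.0313), from the listed clusters with related seeds. None of these passed the main test. These genes lay between 0 (Mir106a in WT) and 4.06 RPKM (Mir363 in WT replicate 1) at 5 min. One read there was worth 0.689 to 1.47 RPKM at a member, so these calls rest on few reads. With robust variance estimates the calls over all genes were 81, 29 and 26. No gene passed the main test in any table, and differences under the intervals given were not detectable with 2 libraries per group and 22 to 184 reads per member. Larger differences could also fail the main test.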
